A study of Mus musculus with 24 samples.

Results

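The deep brain and the cortex of control mice were compared in 12 single-nucleus RNA sequencing (snRNA-seq) libraries, 6 of each region, from the same 6 mice. These were the libraries labelled Pdgfb ret/wt, chosen by genotype and dissected region alone, and they are 12 of the 24 libraries of the series. They held 72291 of the 151915 nuclei that passed the limits on quality, 54862 from deep brain and 17429 from cortex. In this study the control mice serve as the comparison for Pdgfb ret/ret mice, in which the deep brain is labelled as prone to calcification and the cortex as not prone to it, so the controls show how the same dissections differ without that genotype. The controls, of strain B6.Pdgfbtm3Cbet, were themselves heterozygous carriers of the ret allele, and no library of mice without it was analysed here. Their ages ran from 4 months and 7 days (mouse 6) to 5 months and 18 days (mouse 3), and only mouse 6 was male. The 6 Pdgfb ret/ret mice used for a comparison below were all female and of the same age range. The tissue was macrodissected, and by the study's description deep brain meant pallidum, thalamus, hypothalamus, midbrain and pons, and cortex meant cerebral cortex with hippocampus.

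Glutamatergic neurons of the cortex and hippocampus descend from the pallium and mostly load vesicles with the transporter VGLUT1, the product of Slc17a7. Thalamic, hypothalamic and brainstem glutamatergic neurons mostly use VGLUT2, the product of Slc17a6, and many subcortical nuclei are defined by the transcription factors that patterned them in the embryo. Oligodendrocytes make myelin and are denser in fibre-rich tissue than in grey matter. Neurons were taken here as nuclei with at least 2 unique molecular identifiers (UMIs) of Rbfox3, which encodes the neuronal protein NeuN, and oligodendrocytes as nuclei with at least 6 UMIs of the myelin genes Mog, Mag and Mobp together and none of Rbfox3. Those genes defined the classes, and their levels there are not results.

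The promoters of both vesicular transporters are shown because their genes separate cortical from subcortical glutamatergic neurons. Slc17a6 (chromosome 7, 51622006 to 51671119) and Slc17a7 (chromosome 7, 45163949 to 45176142) both lie on the plus strand (GRCm38). The sequences are those of RefSeq (GRCm38.p6), read on the plus strand from 250 bases before to 50 bases after a transcription start. Capitals mark the GC box GGGCGG and the letters CAGATG, an E-box that NeuroD factors bind, on either strand. No copy of CTTTGAT, the core that TCF/LEF factors bind, was found in them on either strand. The first Slc17a6 window is chr7:51621580-51621879, the second is chr7:51624387-51624686, and that of Slc17a7 is chr7:45163671-45163970.
Slc17a6, first start: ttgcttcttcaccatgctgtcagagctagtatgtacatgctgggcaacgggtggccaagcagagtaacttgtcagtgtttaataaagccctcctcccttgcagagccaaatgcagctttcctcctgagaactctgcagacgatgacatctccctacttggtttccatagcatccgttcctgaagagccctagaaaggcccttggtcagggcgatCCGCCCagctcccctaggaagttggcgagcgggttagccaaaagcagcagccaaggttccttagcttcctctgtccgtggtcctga
Slc17a6, second start: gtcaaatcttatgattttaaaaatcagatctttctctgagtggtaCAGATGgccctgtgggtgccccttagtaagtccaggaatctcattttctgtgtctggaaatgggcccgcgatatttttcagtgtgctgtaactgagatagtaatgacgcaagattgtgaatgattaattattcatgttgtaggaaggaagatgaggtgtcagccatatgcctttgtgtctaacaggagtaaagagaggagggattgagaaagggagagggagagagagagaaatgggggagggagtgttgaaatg
Slc17a7: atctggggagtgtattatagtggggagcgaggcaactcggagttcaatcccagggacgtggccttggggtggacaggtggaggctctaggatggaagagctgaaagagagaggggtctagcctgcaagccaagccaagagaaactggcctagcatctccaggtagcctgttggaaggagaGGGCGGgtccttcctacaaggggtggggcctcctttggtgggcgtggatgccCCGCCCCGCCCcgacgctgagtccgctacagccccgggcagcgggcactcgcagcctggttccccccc
Of 32851 mouse promoters of this length, 35.7% held the GC box, 17.2% held CAGATG and 3.73% held CTTTGAT. Among the 15 promoters of 10 thalamic genes described below, 9 held the GC box, 1 held CAGATG and none held CTTTGAT. Among the 11 promoters of the 8 pallial transcription factors that matched, 7 held the GC box, 3 held CAGATG and none held CTTTGAT. These are matches of letters only.

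The cortical libraries stood apart in how many barcodes passed the limits. Deep brain libraries kept 85.9 to 91.8% of their barcodes and 5 cortical libraries 14.2 to 27.6%, whereas the cortex of mouse 5 kept 86.0%. Those 5 cortical libraries held 1312 to 1924 nuclei and the cortex of mouse 5 held 9696, next to 7259 to 10475 in deep brain. Kept nuclei summed to 18260711 to 92136606 UMIs per cortical and 63702781 to 90730013 per deep brain library. A mouse's libraries shared 7 to 123 barcodes. As a check of the classes, the 12 neuronal markers summed to 13160 to 15350 CPM (counts scaled to a common library total) in cortical and 12490 to 13230 in deep brain neurons, and the 10 oligodendrocyte markers to 23330 to 32150 and 21190 to 26000 CPM in oligodendrocytes.

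Neurons made up a smaller share and oligodendrocytes a larger share of kept nuclei in deep brain. Neurons were 61.6% ± 4.34 (SD, n = 6) of kept nuclei in cortex and 41.2% ± 4.98 in deep brain, lower in deep brain in 6 of 6 mice. Oligodendrocytes were 12.3% ± 2.97 in cortex and 22.3% ± 3.09 in deep brain, higher in 6 of 6 mice. Both differences gave p = 0.03125 in the two-sided exact permutation test over the 64 sign changes of the 6 pairs, the smallest p these pairs allow, and an adjusted p of 0.0391 over the 5 shares tested. The neuronal difference depended on the minimum of 2000 UMIs per nucleus. Without that minimum neurons were 33.0% ± 17.1 in cortex and 37.7% ± 5.20 in deep brain, higher in deep brain in 3 of 6 mice (exact permutation p = 0.5625), while oligodendrocytes were 6.87% ± 3.49 and 22.6% ± 2.97, higher in deep brain in 6 of 6 mice at the same p of 0.03125 in the exact permutation test, but with an adjusted p of 0.0521. With every nucleus thinned to 2000 UMIs before the classes were drawn, neurons were 15.6% ± 3.26 in cortex and 9.43% ± 1.32 in deep brain, since fewer nuclei then reach 2 UMIs of Rbfox3. Kept nuclei had a median of 8649.5 to 15084 UMIs in cortex and 5297 to 8069 in deep brain.

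**Figure D1:**
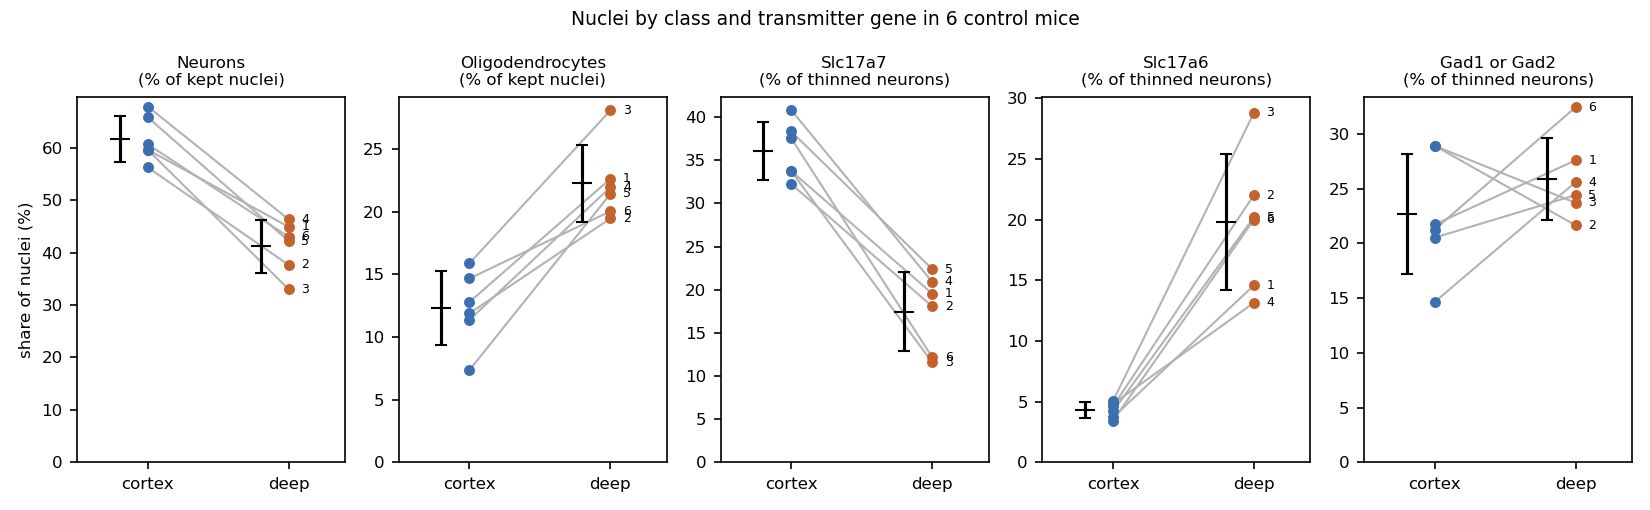
Shares of nuclei in percent for the 6 control mice, cortex in blue and deep brain in orange. Each point is a library, grey lines join the libraries of a mouse, and black marks give the mean ± SD. Lines for neurons and Slc17a7 fall and lines for oligodendrocytes and Slc17a6 rise in all 6 mice, and for Gad1 or Gad2 they rise in 4 of 6.

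The shares of neurons with each vesicular glutamate transporter differed between the regions. At 2000 UMIs per nucleus, Slc17a7 was detected in 36.1% ± 3.33 of cortical and 17.5% ± 4.54 of deep brain neurons. Slc17a6 was detected in 4.30% ± 0.637 of cortical and 19.8% ± 5.61 of deep brain neurons. Each difference had the same direction in 6 of 6 mice (exact permutation p = 0.03125, adjusted p = 0.0391). Without the minimum of 2000 UMIs both kept that direction and that p, with an adjusted p of 0.0521. Without thinning the shares were 76.9% ± 5.32 and 40.9% ± 10.8 for Slc17a7 and 18.8% ± 3.93 and 42.7% ± 8.00 for Slc17a6. Free RNA can place a UMI in any nucleus, and oligodendrocytes, which should lack these transporters, gave a rough measure of this background. At 2000 UMIs Slc17a7 was found in 15.2% ± 0.750 of cortical and 4.52% ± 1.62 of deep brain oligodendrocytes, and Slc17a6 in 1.53% ± 1.06 and 6.13% ± 1.68. Median depth before thinning was 10775 to 18879 UMIs in cortical and 11113 to 13594 in deep brain neurons, against 2440 to 4218 and 2645 to 3136 in oligodendrocytes. The mean neuronal shares lay above the oligodendrocyte shares in both regions, and both differed between the regions in the same direction. Oligodendrocytes were thinned from fewer UMIs than neurons, so the background of neurons can differ from this measure. Gad1 or Gad2, which encode the enzymes that make GABA, were found in 22.7% ± 5.48 of cortical and 25.9% ± 3.76 of deep brain neurons. The share was higher in deep brain in 4 of 6 mice (exact permutation p = 0.375). In oligodendrocytes it was 10.9% ± 4.71 in cortex and 14.3% ± 2.27 in deep brain.

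Across all 18935 genes tested in neurons, 3454 or 18.2% were higher and 3187 or 16.8% lower in deep brain at an adjusted p under 0.05, in the quasi-likelihood test of edgeR on UMIs summed per library with the mouse as a block. By over 2-fold, 4.27% were higher and 2.75% lower. Values in parentheses below are log2 fold changes of deep brain over cortex ± SE from this fit, and a gene is called where its adjusted p is under 0.05. Of 12 transmitter genes 11 were tested, 5 were higher and 1 lower. Slc17a6 ran from 21.3 to 35.0 CPM in cortex, with a median of 27.0, and from 103 to 212 in deep brain, with a median of 126 (2.30 ± 0.11, adjusted p = 6.99e-06). Slc17a7 ran from 228 to 296 CPM in cortex, with a median of 242, and from 63.2 to 150.5 in deep brain, with a median of 125 (-1.22 ± 0.15, adjusted p = 4.93e-04). Neither gene's ranges overlapped, and both transporters were present in both regions. The others that were higher make or carry acetylcholine or GABA: Slc18a3, the vesicular acetylcholine transporter (1.73 ± 0.34), Chat, which makes acetylcholine (1.25 ± 0.35), Slc5a7, the choline transporter (1.24 ± 0.33), and Gad2 (0.41 ± 0.14). Slc18a3 was low, at 0.164 ± 0.112 CPM in cortex and 0.6075 ± 0.215 in deep brain. Gad2 lost its call without mouse 1, 3, 4, 5 or 6. Chat lost it without mouse 4 or 6, and Slc5a7 with stricter class limits.

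All 10 thalamic genes were higher in deep brain neurons, where 18.2% of all genes were, 9 of them by over 2-fold, with a median log2 fold change of 3.44 against 0.00 over all genes. This list and those below were chosen with earlier results of these data known, so such counts describe the listed genes and are no test of a list. Lef1 (chromosome 3, 131110471 to 131224356), a transcription factor of the Wnt pathway that marks thalamic neurons, ran from 1.14 to 7.65 CPM in cortex, with a median of 2.04, and from 78.1 to 118 in deep brain, with a median of 90.0 (5.04 ± 0.35). Tcf7l2 (chromosome 19, 55741820 to 55933654), its relative, ran from 2.15 to 11.4 CPM in cortex, with a median of 5.50, and from 99.0 to 184 in deep brain, with a median of 129 (4.52 ± 0.26). For both the lowest deep brain library stood above the highest cortical one. The kinase Prkcd (3.89 ± 0.20), Plekhg1 (3.66 ± 0.21) and Ntng1 (1.53 ± 0.12), an adhesion molecule of thalamic axons, were also separate between the regions, and Rora, a nuclear receptor that cortical neurons use too, moved least (0.45 ± 0.08).

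**Figure D2:**
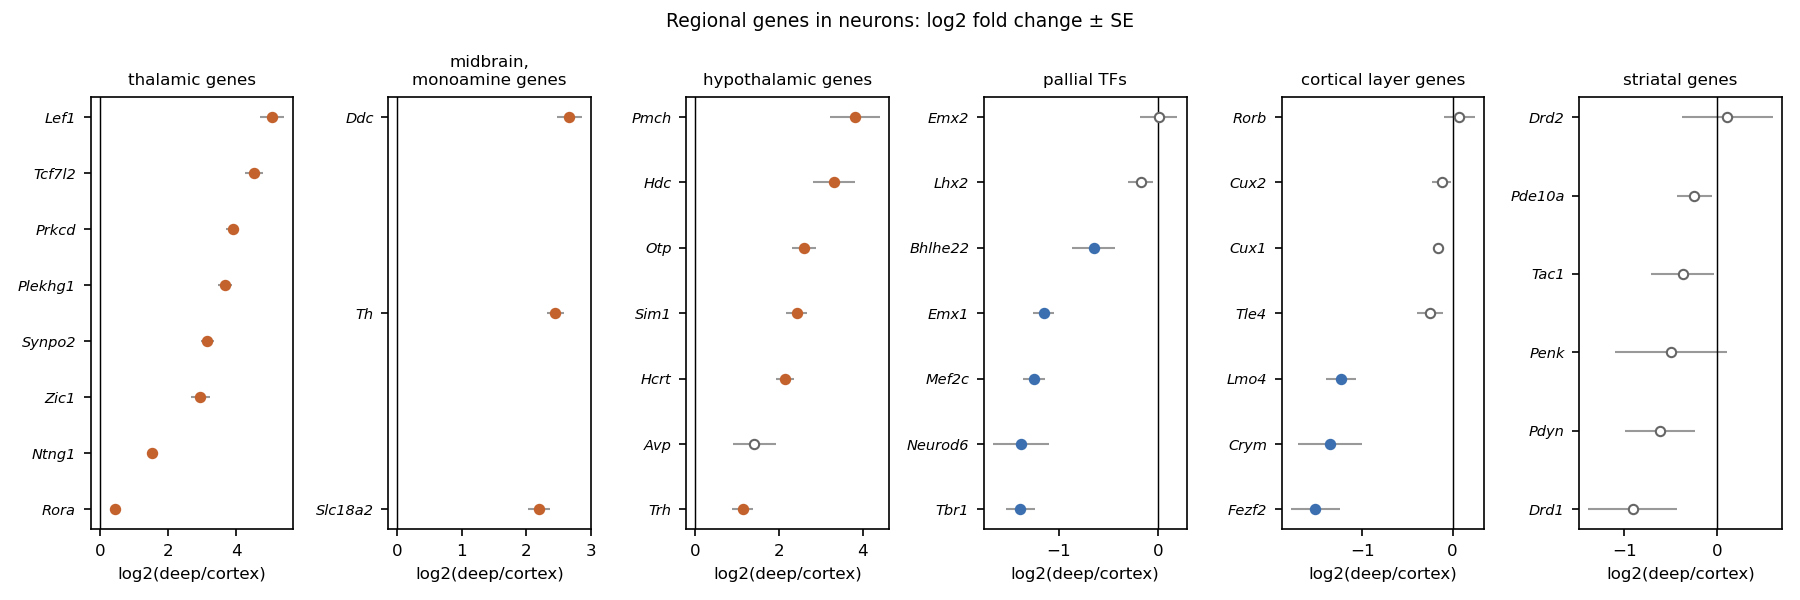
Log2 fold changes of deep brain over cortex in neurons, ± SE, for the regional genes named in the text. Filled orange points are higher and filled blue points lower in deep brain at an adjusted p under 0.05, and open points were not called. All thalamic and midbrain genes shown lie to the right of 0, all pallial factors shown except Lhx2 and Emx2 are called to its left, and no striatal gene shown is called.

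Midbrain and monoamine genes were likewise higher. Of 20 listed genes 14 passed the filter on low counts, and these were all higher in deep brain, with a median of 4.31, also with the 2 genes that had 3 or fewer UMIs in a region set at that floor. A gene that is high in deep brain alone passes such a filter through deep brain, so this count describes the genes that passed. Of all genes 18.2% were higher. Th, the rate-limiting enzyme of dopamine synthesis, was at 1.51 ± 0.793 CPM in cortex and 8.16 ± 3.75 in deep brain (2.45 ± 0.14). Ddc, which completes dopamine and serotonin synthesis, was at 1.86 ± 0.852 CPM in cortex and 11.5 ± 3.39 in deep brain (2.67 ± 0.19), and Slc18a2, the vesicular monoamine transporter, at 3.37 ± 1.01 CPM in cortex and 15.6 ± 4.66 in deep brain (2.20 ± 0.18). The ranges of these did not overlap. Of 12 hypothalamic genes 11 were tested and 7 were higher, with a median of 2.14. They included Pmch, the precursor of melanin-concentrating hormone (3.80 ± 0.59), and Hdc, which makes histamine (3.32 ± 0.50). The transcription factors Otp (2.59 ± 0.29) and Sim1 (2.42 ± 0.24) were also among them. Their cortical levels were low. Pmch was at 0.583 CPM in cortex and 6.47 in deep brain, and Hdc at 0.1605 and 1.53. Otp was at 0.134 CPM in cortex and 0.832 in deep brain, and Sim1 at 0.858 and 4.75.

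Pallial transcription factors went the other way. Of 11, 9 were lower in deep brain and 0 higher, with a median of -1.02. Mef2c, an activity-regulated factor, ran from 725 to 1057 CPM in cortex, with a median of 765, and from 248 to 457 in deep brain, with a median of 349 (-1.25 ± 0.11). Its ranges were separate, and it was still found in every deep brain library. Tbr1 (-1.39 ± 0.15), Neurod6 (-1.38 ± 0.28) and Emx1 (-1.15 ± 0.11) were also lower, and Lhx2 and Emx2 were not called. Bhlhe22 (-0.65 ± 0.22) lost its call without mouse 1, 3, 4 or 6. Of 12 genes that mark cortical layers 3 were lower, where 16.8% of all genes were: Fezf2 (-1.52 ± 0.27), Crym (-1.36 ± 0.35; not called without mouse 5) and Lmo4 (-1.23 ± 0.16). Cux1, Cux2, Rorb and Tle4 were among those not called. Of 8 hippocampal genes, Iyd (1.54 ± 0.46) and Prox1 (1.19 ± 0.17) were higher in deep brain and Wfs1 lower (-0.60 ± 0.18), counts near the 18.2% higher and 16.8% lower of all genes. Iyd was not called without mouse 1, 3 or 5, and Wfs1 not without mouse 1, 2, 3 or 5.

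None of the 12 striatal genes was called between the regions in neurons (edgeR), where 18.2% of all genes were higher and 16.8% lower. The ranges of all 12 overlapped, and the share of all genes with overlap is not given here. At an unadjusted p under 0.05 0 of them passed, and DESeq2 called 0. The dopamine receptor gene Drd1 was at 37.0 ± 13.6 CPM in cortex and 22.2 ± 13.6 in deep brain (-0.91 ± 0.48), and Drd2 at 33.6 ± 10.9 CPM in cortex and 43.0 ± 30.1 in deep brain (0.11 ± 0.49). Pde10a, a phosphodiesterase of striatal neurons, was at 1398 ± 382 CPM in cortex and 1204 ± 403 in deep brain. Transcripts known from the striatum were thus measured in the libraries of both regions, and the study's description names the striatum in neither.

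Of 27 positional transcription factors, 20 were tested in neurons, 13 were higher and 2 lower in deep brain, where 18.2% and 16.8% of all genes were. Some of them, such as Zic1 and Emx1, were already counted in the lists above. Here too a gene that is high in deep brain alone passes the filter through deep brain, and the count describes only the genes that passed. Zic1, of a family of medial and thalamic territories, was at 2.02 ± 1.38 CPM in cortex and 14.4 ± 3.95 in deep brain (2.94 ± 0.28), Zic4 at 1.76 ± 1.24 CPM in cortex and 9.79 ± 1.47 in deep brain (2.58 ± 0.35) and Zic2 at 1.20 ± 0.574 CPM in cortex and 6.50 ± 1.91 in deep brain (2.47 ± 0.19). Their ranges were separate. Emx1 was among those that were lower.

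Hindbrain transcripts differed between mice. None of the 17 hindbrain genes passed the filter in neurons, so their UMIs over all kept nuclei are given. The 12 Hox genes of the list, which are expressed in hindbrain and spinal cord, gave 171 UMIs in the deep brain of mouse 2, 246 in mouse 3 and 125 in mouse 6, and 9, 17 and 6 in mice 1, 4 and 5. In cortex they gave 0 to 2 UMIs per library. Slc6a5, the glycine transporter of inhibitory brainstem neurons, gave 364, 770 and 223 UMIs in the deep brain of mice 2, 3 and 6, 26, 20 and 69 in mice 1, 4 and 5, and 0 to 3 in cortex. The same 3 mice were thus highest for both. The deep brain of mouse 3 also held 1186 UMIs of Gabra6 and 489 of Cbln3, which cerebellar granule cells express, where the other 5 deep brain libraries held 2 to 42 and 3 to 18. A floor of 3 counts is 0.0326 to 0.164 CPM in these libraries.

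**Figure D3:**
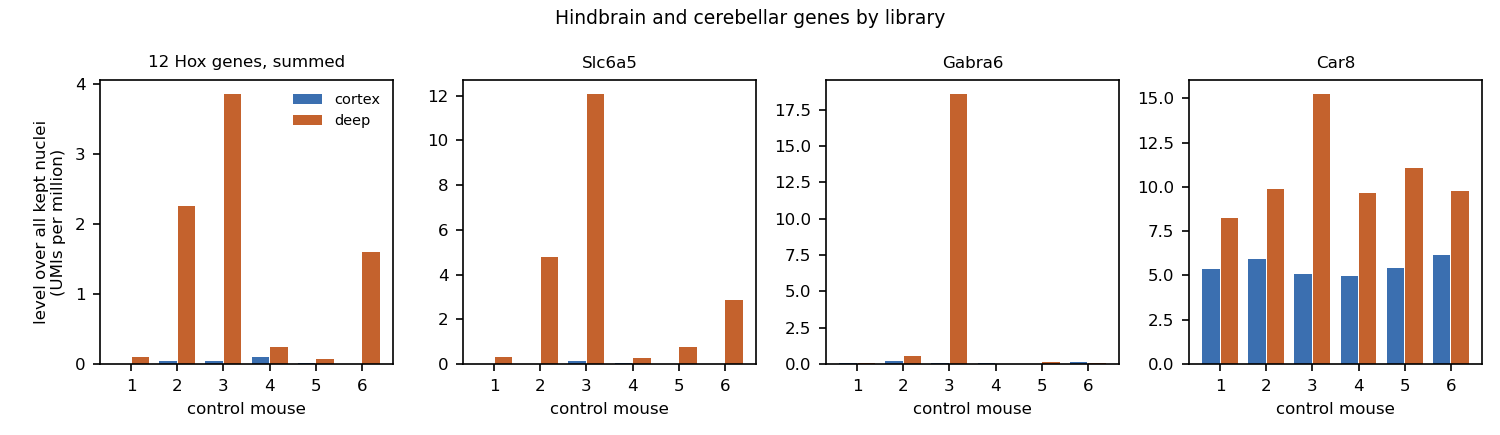
CPM over all kept nuclei for hindbrain and cerebellar genes, by control mouse, cortex in blue and deep brain in orange. Hox genes and Slc6a5 are highest in the deep brain of mice 2, 3 and 6, and Gabra6 reaches 18.6 in the deep brain of mouse 3.

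Among single genes in neurons that were called, reached at least 20 CPM in the higher region and had the same direction in 6 of 6 mice, the 10 with the highest fold change were Lef1, Ebf3 (4.80 ± 0.37), Abhd12b (4.75 ± 0.48), Tcf7l2, Prkcd, Plekhg1, Glra1 (3.46 ± 0.21), Synpo2 (3.15 ± 0.19), Tafa4 (2.91 ± 0.16) and Zfhx3 (2.78 ± 0.11). Ebf3 and Zfhx3 encode transcription factors, and Synpo2 an actin-binding protein. Zfhx3 was at 53.4 ± 12.0 CPM in cortex and 363 ± 63.1 in deep brain. At the other end stood Vip, the neuropeptide of a class of cortical interneurons, which ran from 25.8 to 64.5 CPM in cortex, with a median of 48.0, and from 2.61 to 14.7 in deep brain, with a median of 7.47 (-2.70 ± 0.43). Npy, a peptide of other interneurons, ran from 37.3 to 72.9 CPM in cortex, with a median of 44.8, and from 8.17 to 25.2 in deep brain, with a median of 14.1 (-1.87 ± 0.21). Ccn3 (-2.11 ± 0.32), Ccn2 (-1.96 ± 0.24), a gene of the deepest cortical layer, Abi3bp (-1.62 ± 0.16), Rspo2 (-1.56 ± 0.25), which enhances Wnt signals, Col6a1 (-1.52 ± 0.18) and the potassium channel gene Kcnv1 (-1.47 ± 0.17) followed, beside 2 genes with no assigned name. The ranges of the regions were separate for all 20.

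Of 17 neuropeptide genes 5 were higher, 5 lower and 7 not called in deep brain neurons, with a median of -0.17, where 18.2% of all genes were higher and 16.8% lower. Those that were lower, Vip, Npy, Crh (-1.39 ± 0.28), Cck (-1.30 ± 0.13) and Sst (-1.01 ± 0.10), are peptides of cortical interneurons, and Cck is also made by pyramidal cells. Those that were higher were Pmch, Gal (2.71 ± 0.41), Hcrt, the precursor of the orexins (2.14 ± 0.22), Trh (1.13 ± 0.25; not called after thinning to 2000 UMIs) and Adcyap1 (0.61 ± 0.07). Penk, Pdyn and Tac1, the peptide genes of striatal projection neurons, were not called. The calcium-binding protein gene Calb2 was at 3.01 ± 1.20 CPM in cortex and 19.4 ± 6.55 in deep brain (2.69 ± 0.20), and its paralog Calb1 was not called.

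Of 22 glutamate receptor genes 5 were higher and 9 lower in deep brain neurons, where 18.2% and 16.8% of all genes were, with a median of -0.18. The NMDA receptor subunit gene Grin2c ran from 0.946 to 2.31 CPM in cortex, with a median of 1.41, and from 9.50 to 15 in deep brain, with a median of 11.3 (2.96 ± 0.19). Grin2d (1.48 ± 0.12) and Grin3a (0.77 ± 0.13) were also higher, whereas Grin2a (-0.52 ± 0.12) and Grin2b (-0.46 ± 0.10), the main partners of Grin1 in the forebrain, were lower. The metabotropic receptor gene Grm4 (0.68 ± 0.15) was higher, and Grm3 (-0.60 ± 0.11) and the AMPA receptor subunit gene Gria3 (-0.56 ± 0.07) lower. Of 4 glycine receptor subunits 3 were higher. Glra1, the adult subunit of brainstem and spinal synapses, ran from 1.28 to 3.08 CPM in cortex, with a median of 1.70, and from 10.9 to 40.3 in deep brain, with a median of 19.5, with the regions separate, and Glra3 (0.93 ± 0.14) and Glra2 (0.41 ± 0.08) followed. Of 14 GABA-A receptor subunits tested, 3 were higher, Gabrq (1.97 ± 0.19), Gabre (1.80 ± 0.21) and Gabrg1 (0.94 ± 0.13), and 2 lower, counts near the 18.2% and 16.8% of all genes.

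Channel and serotonin receptor genes were called in both directions, where 18.2% of all genes were higher and 16.8% lower. Of 20 voltage-gated channel genes 9 were higher and 6 lower, with a median of 0.05. Hcn4, a subunit of the hyperpolarization-activated channels that pace firing, ran from 2.06 to 2.76 CPM in cortex, with a median of 2.34, and from 6.15 to 9.94 in deep brain, with a median of 8.13 (1.76 ± 0.13). Its ranges were separate. Kcnc2 (0.73 ± 0.11), a channel gene of fast-spiking neurons, Hcn3 (0.65 ± 0.10) and Cacna1g (0.54 ± 0.09), which encodes a T-type calcium channel of thalamic bursts, were higher. Cacna1e was lower (-0.42 ± 0.12) and was not called without mouse 1, 3, 5 or 6. Of 11 serotonin receptor genes Htr7 (1.29 ± 0.15) and Htr2c (1.13 ± 0.08) were higher, while Htr3a (-1.78 ± 0.51), the ionotropic receptor of a class of interneurons, Htr1f (-0.95 ± 0.07), Htr2a (-0.86 ± 0.07), Htr5a (-0.71 ± 0.15) and Htr6 (-0.60 ± 0.16) were lower. The higher ones were no larger a share of this list than of all genes. Htr3a was not called without mouse 1, 3, 4, 5 or 6, and Htr5a and Htr6 not after thinning.

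**Figure D4:**
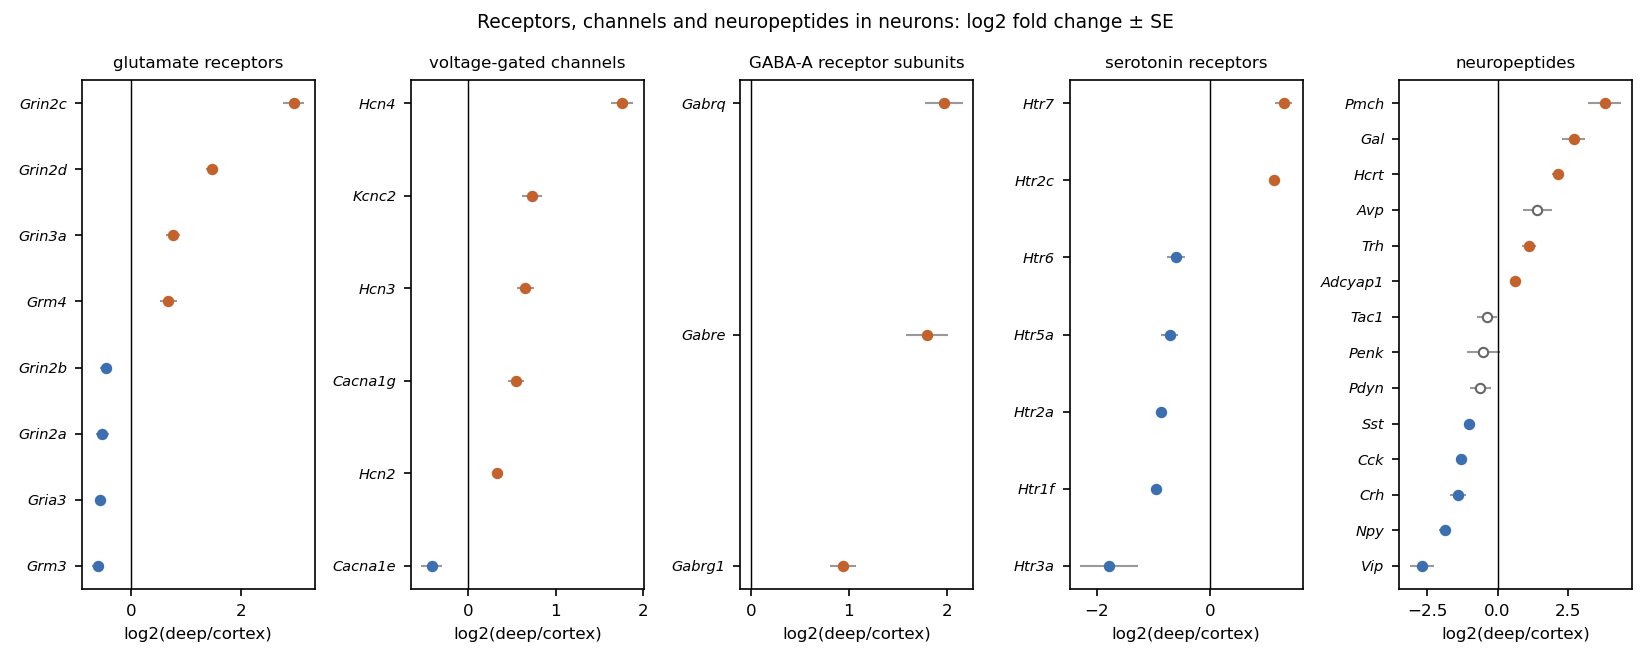
Log2 fold changes of deep brain over cortex in neurons, ± SE, for the receptor, channel and neuropeptide genes named in the text. Filled orange points are higher and filled blue points lower in deep brain at an adjusted p under 0.05, and open points were not called. Among the genes shown, Grin2c lies at 2.96 and Hcn4 at 1.76 on the right of 0 and Vip at -2.70 on its left.

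Immediate early genes, which neurons transcribe within minutes of activity, were lower in deep brain neurons in 9 of 10 cases, with a median of -0.84 against 0.00 over all genes, of which 16.8% were lower. Arc ran from 83.7 to 163 CPM in cortex, with a median of 110, and from 26.5 to 99.7 in deep brain, with a median of 44.2 (-1.28 ± 0.28). Junb (-1.10 ± 0.20), Npas4 (-1.08 ± 0.20) and Nr4a1 (-0.89 ± 0.13) were among the others, and Fos was not called. Of these 5 the regions were separate for Npas4 alone. Transcripts of other cells moved with the regions too. In neurons the 10 oligodendrocyte markers summed to 304 to 512 CPM in cortex and 430.4 to 606 in deep brain, with 5 higher, and the 6 astrocyte markers to 494 to 708 and 276 to 479.7 CPM, with Slc1a2 lower (-0.87 ± 0.10). The 5 microglial markers summed to 21.3 to 43.5 CPM in cortex and 17.8 to 27.5 in deep brain, and 5 were lower, with a median of -0.47. Their part in the neuronal differences was not tested.

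Of 14 genes tied to brain calcification, 13 were tested in neurons, and 3 were higher and 3 lower in deep brain, a share near that of all genes. Pdgfb, the growth factor gene that recruits pericytes to vessels and that carries the ret allele in all these mice, ran from 9.99 to 16.0 CPM in cortex, with a median of 12.2, and from 2.99 to 8.56 in deep brain, with a median of 6.78 (-1.04 ± 0.15). Over all kept nuclei Pdgfb ran from 10.4 to 15.2 CPM in cortex and from 3.30 to 6.94 in deep brain (-1.10 ± 0.12). The ranges were separate in both. Spp1, which encodes osteopontin, ran from 0.292 to 3.97 CPM in cortex, with a median of 1.22, and from 2.92 to 19.8 in deep brain, with a median of 6.70, with overlap (2.51 ± 0.34). Cmpk2 (0.71 ± 0.11) and the junction gene Jam2 (0.65 ± 0.09) were higher, and Ank (-0.41 ± 0.05), which encodes a pyrophosphate exporter, and the phosphate transporter gene Slc20a1 (-0.28 ± 0.04) lower. After thinning Jam2 and Slc20a1 were not called. The phosphate transporter gene Slc20a2 and the phosphate exporter gene Xpr1 were not called.

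In oligodendrocytes far fewer genes were called, on far fewer UMIs. Cortical libraries summed to 714925 to 2146790 UMIs in oligodendrocytes and to 15202698 to 76015403 in neurons. The counts of calls therefore do not show which class differs more between regions. Of 12946 genes tested in oligodendrocytes, 248 or 1.92% were higher and 438 or 3.38% lower in deep brain, and by over 2-fold 0.541% and 1.2%. Each cortical library rested on 150 to 715 oligodendrocytes and each deep brain library on 1595 to 2431. Without mouse 2 the counts were 151 higher and 276 lower, without mouse 3 153 and 232, and without the block for the mouse 158 and 338. With stricter class limits (at least 10 UMIs of the myelin genes and none of Rbfox3, Snap25 or Syt1) they were 28 and 60. Those limits left far fewer nuclei, 1.085% ± 0.4245 of kept nuclei in cortex and 5.34% ± 1.89 in deep brain, and 8672 genes tested. A call lost under them can therefore reflect fewer nuclei. Some neuronal transcripts differed in these nuclei. In oligodendrocytes Slc17a7 was at 86.1 ± 9.59 CPM in cortex and 21.6 ± 8.59 in deep brain and Slc17a6 at 8.59 ± 3.97 CPM in cortex and 35.1 ± 8.77 in deep brain, and the 12 neuronal markers summed to 1513 to 2679 CPM in cortex and 1096 to 1683 in deep brain, with 2 higher and 5 lower. The genes with the highest fold changes are therefore named only where their level in oligodendrocytes was at least that in neurons of the region where they were higher, which left 183 of 411 genes, 100 higher and 83 lower in deep brain.

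Some myelin genes were lower in deep brain oligodendrocytes. Leaving out Mog, Mag and Mobp, which defined the class, 23 listed genes were tested, of which 7 were lower, where 3.38% of all genes were, and 0 higher. Their median was -0.153 against 0.00 over all genes. Cldn11, a tight junction protein of myelin, ran from 1014 to 1811 CPM in cortex, with a median of 1420, and from 668 to 1124 in deep brain, with a median of 938 (-0.61 ± 0.09). Opalin ran from 332 to 487 CPM in cortex, with a median of 395, and from 207 to 359 in deep brain, with a median of 271 (-0.57 ± 0.10). The ranges of both overlapped. Gsn (-0.64 ± 0.09), Mal (-0.58 ± 0.10), Cers2 (-0.56 ± 0.08) and Tspan2 (-0.40 ± 0.07) were also lower, and these 4 were not called with the stricter class limits. Mbp and Cnp were not called, nor was any of the 16 cholesterol synthesis genes or of the 6 tested genes of newly forming oligodendrocytes. With edgeR at an unadjusted p under 0.05 1 and 1 of these passed, and DESeq2 called 0 and 0. Of 14 genes that mark oligodendrocyte states, Klk6, a secreted protease, ran from 14.5 to 58.4 CPM in cortex and from 30.9 to 75.3 in deep brain (0.69 ± 0.19, edgeR adjusted p = 0.0451), and Opalin, Cd9 (-0.65 ± 0.09) and Ptgds (-0.42 ± 0.11) were lower. Klk6 was not called without mouse 1, 3, 4 or 6, and Ptgds not without mouse 1, 2 or 4. Both also lost the call without the block and with the stricter limits.

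Agt (chromosome 8, 124556534 to 124569706), the angiotensinogen gene, led the named genes higher in deep brain oligodendrocytes and ran from 0 to 4.48 CPM in cortex, with a median of 1.12, and from 20.7 to 26.7 in deep brain, with a median of 22.7 (3.83 ± 0.35). Slc6a11, a GABA transporter gene, ran from 5.22 to 15.2 CPM in cortex, with a median of 9.72, and from 32.4 to 54 in deep brain, with a median of 42.0 (2.12 ± 0.19). Both were separate between the regions, and both are known as genes of subcortical astrocytes. Over all kept nuclei Agt was at 4.25 ± 1.50 CPM in cortex and 25.0 ± 4.46 in deep brain, and Slc6a11 at 22.1 ± 3.41 CPM in cortex and 64.7 ± 10.8 in deep brain. Of the 6 astrocyte markers Aqp4 was higher in deep brain oligodendrocytes (1.22 ± 0.26), and the median of the 6 was 0.35. They summed to 424 to 713 CPM in cortex and 361 to 567 in deep brain. Slc1a2 weighs heavily in such a sum, with 732 ± 71.9 CPM in cortex and 507 ± 130 in deep brain over all kept nuclei. Of 6 regional astrocyte genes 3 were higher in oligodendrocytes, where 1.92% of all genes were: Agt, Slc6a11 and Itih3 (0.57 ± 0.15). Itih3 lost its call in 7 of the alternatives. The part of astrocyte RNA in Agt and Slc6a11 was not tested. With the stricter class limits their log2 fold changes were 3.95 and 2.35, but those limits screen no astrocyte gene. Under them the 6 astrocyte markers still summed to 311 to 1731 CPM in cortex and 293 to 507 in deep brain. Nhsl1 ran from 7.09 to 16.6 CPM in cortex, with a median of 10.0, and from 23.0 to 35.9 in deep brain, with a median of 31.3 (1.39 ± 0.18), and Slc39a12, a zinc transporter gene (1.34 ± 0.26), Cachd1 (0.99 ± 0.14) and Bcat1 (0.93 ± 0.11), which breaks down branched-chain amino acids, followed, with 3 genes with no assigned name among the 10. With the stricter class limits Aqp4, Nhsl1, Slc39a12 and Cachd1 were not called, after thinning Aqp4 and Nhsl1 not, and without the block Cachd1 and Bcat1 not. Hcn2 was also higher (0.80 ± 0.11).

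**Figure D5:**
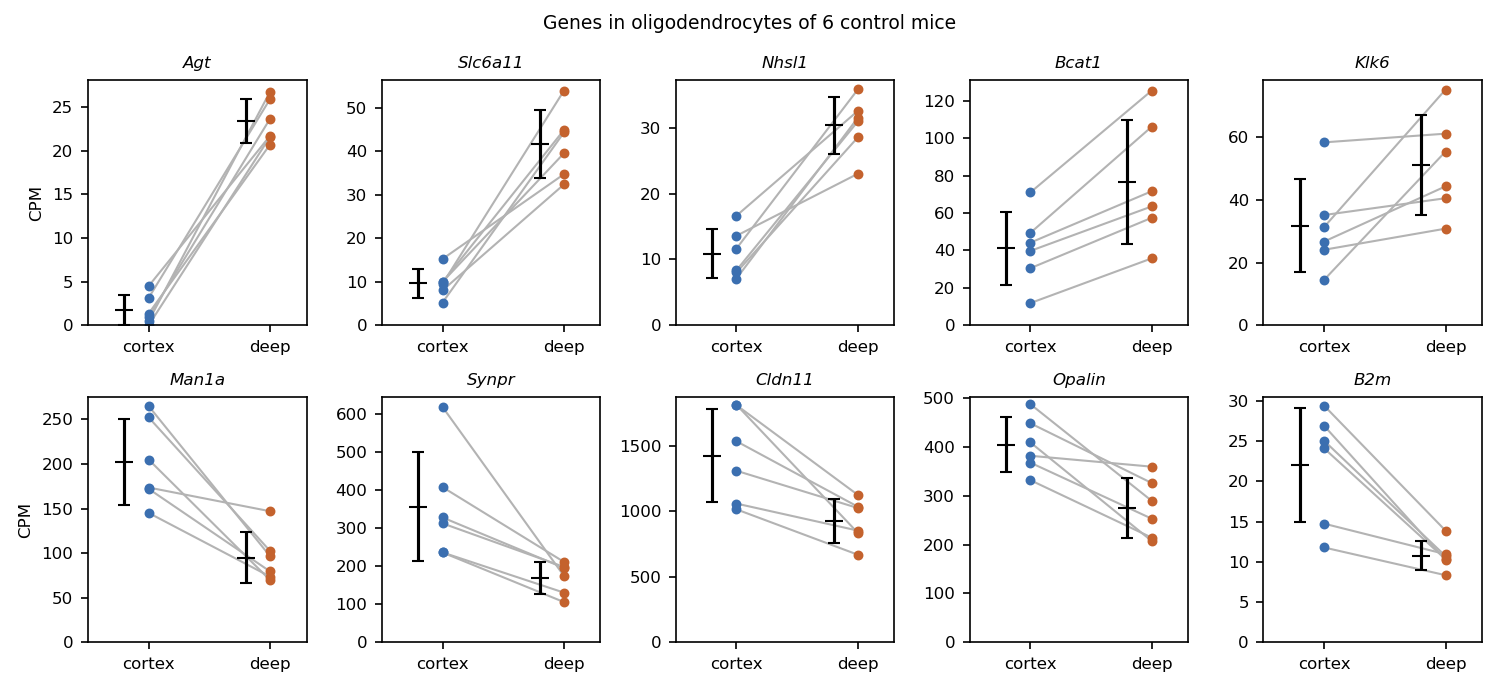
CPM of genes in oligodendrocytes, cortex in blue and deep brain in orange. Each point is a library, grey lines join the libraries of a mouse, and black marks give the mean ± SD. Agt and Slc6a11 are separate between the regions, and Cldn11 and Opalin overlap.

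Among the named genes lower in deep brain oligodendrocytes, those at least at the neuronal level, the neuropeptide gene Cck (-1.45 ± 0.20) led. It was at 171 ± 68.5 CPM in cortex and 60.5 ± 14.4 in deep brain. That was close to its level in neurons, at 150 ± 30.9 CPM in cortex and 61.4 ± 14.5 in deep brain. Synpr, which encodes a synaptic vesicle protein, ran from 237 to 619.5 CPM in cortex, with a median of 321, and from 106 to 212 in deep brain, with a median of 186 (-1.04 ± 0.12), with separate ranges. Man1a, a mannosidase of protein glycosylation, ran from 145 to 265 CPM in cortex, with a median of 189, and from 69.9 to 147 in deep brain, with a median of 88.1 (-1.12 ± 0.13), and B2m, the light chain of class I histocompatibility molecules, from 11.8 to 29.4 CPM in cortex, with a median of 24.6, and from 8.35 to 13.9 in deep brain, with a median of 10.5 (-0.98 ± 0.18). These latter ranges overlapped. Pde3a (-1.05 ± 0.22), Tmem179b (-0.87 ± 0.17) and Chadl (-0.84 ± 0.18) were also among the 10, beside 3 genes with no assigned name. B2m and Tmem179b were not called with the stricter class limits, and Chadl not after thinning. Of the 11 calcification genes tested in oligodendrocytes, Spp1 was called (2.13 ± 0.45), at a deep brain mean of 6.44 CPM, under the 9.38 in neurons. Of the 9 iron handling genes none was called (2 at an unadjusted p under 0.05 in edgeR, 0 by DESeq2). Of all genes in oligodendrocytes 1.92% were higher and 3.38% lower, shares at which lists this small would hold few or no calls.

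Over all kept nuclei 20620 genes were tested, of which 4452 or 21.6% were higher and 4136 or 20.1% lower in deep brain. In such sums more nuclei of a type and more RNA per nucleus cannot be told apart. Of the 26 myelin genes 21 were higher. Regional astrocyte genes were higher in 4 of 6 cases, Agt (2.60 ± 0.12), Itih3 (2.20 ± 0.14), Slc6a11 (1.55 ± 0.07) and Slc7a10 (1.02 ± 0.11), while Mfge8 was lower (-0.64 ± 0.11). The astrocyte markers Aqp4, a water channel gene (0.86 ± 0.10), and Slc1a2, the main glutamate transporter gene (-0.57 ± 0.10), differed in opposite directions. Of the 5 microglial markers P2ry12 (-0.60 ± 0.15), Tmem119 (-0.57 ± 0.18) and Csf1r (-0.47 ± 0.16) were lower, but Csf1r was not called without mouse 1, 2, 3, 4 or 6 and Tmem119 not without mouse 1, 2, 3 or 4. None of the 6 endothelial and mural markers was called (2 at an unadjusted p under 0.05 in edgeR, 0 by DESeq2).

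The Pdgfb ret/ret mice allowed a test of whether the region differences differed between the genotypes. Fitted alone, neurons of mutants gave 4719 genes higher and 4426 lower in deep brain, 1302 and 925 of them by over 2-fold. Controls gave 3454 and 3187, and 808 and 521 by over 2-fold. Such counts also depend on spread between mice and on depth, so alone they do not show a larger contrast in mutants. Each genotype came from its own mice and dissections, so genotype and dissection cannot be told apart here. In neurons the interaction of region and genotype was called for 75 of 19928 genes, or 0.376%, 20 with a higher and 55 with a lower deep brain to cortex ratio in mutants (edgeR, all 24 libraries). DESeq2 called 186 and 293 on the same libraries. The 10 with the smallest adjusted p included the pallial factor Emx1, at 10.5 ± 1.63 CPM in cortex and 4.80 ± 1.32 in deep brain of controls and 12.2 ± 1.54 CPM in cortex and 1.28 ± 0.900 in deep brain of mutants (interaction -2.27 ± 0.35). Satb1, a chromatin organiser, was at 90.3 ± 18.2 CPM in cortex and 53.2 ± 12.3 in deep brain of controls and 98.2 ± 4.35 CPM in cortex and 27.5 ± 4.10 in deep brain of mutants (-1.08 ± 0.13). Peg10, an imprinted gene, was at 4.61 ± 1.64 CPM in cortex and 12.0 ± 2.57 in deep brain of controls and 2.38 ± 0.832 CPM in cortex and 16.9 ± 2.21 in deep brain of mutants (1.37 ± 0.21). All 10 differed between regions in the same direction in both genotypes, by more in mutants. The number of calls depended on which mice were included, each number standing for a control and a mutant mouse: 0 genes were higher and 0 lower without the mice numbered 1, the same without those numbered 3, at most 1 in each direction without those numbered 2 or 5, and 88 and 160 without those numbered 4. In oligodendrocytes the interaction was called for 2 of 14008 genes, or 0.0143%. C4b, of the complement system, was at 16.1 ± 8.42 CPM in cortex and 19.6 ± 3.81 in deep brain of controls and 238 ± 116 CPM in cortex and 70.2 ± 19.6 in deep brain of mutants (-1.89 ± 0.28). Avp, the vasopressin gene, was the other, with a higher deep brain to cortex ratio in mutants. It had 0 UMIs in every cortical library of the mutants and 59, 105, 803, 190, 102 and 69 in the deep brain of mutants 1 to 6, so that mutant 3 stood far above the rest. Controls had 0 to 8 in cortex and 26 to 75 in deep brain. Neither was called without the mice numbered 2 or 6 or without the block, and Avp was not called without those numbered 3 or 5.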

How the data were processed

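Macrodissected deep brain and cortex were profiled by droplet snRNA-seq from the 5′ end of transcripts. The authors deposited raw UMI counts per barcode and gene, made with Cell Ranger 5.0.1 (bcl2fastq 2.20.0.422) on mm10 with intronic reads counted, per the submitters' processing notes and the study's methods. Counting introns lets nuclear, unspliced RNA count, so long genes with much intron gain UMIs. Barcodes with over 500 and under 7000 genes, under 20% mitochondrial UMIs and at least 2000 UMIs were kept. No doublet caller was run, and of the neurons 261 in cortex and 970 in deep brain also had 6 or more UMIs of Mog, Mag and Mobp.

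Counts were summed per library over all kept nuclei, neurons and oligodendrocytes, since nuclei are not replicates. Genes passed filterByExpr and were tested with edgeR 4.0.16 (quasi-likelihood, TMM, Benjamini-Hochberg adjustment over all genes tested) in R 4.3.3, with the mouse as a block, because the labels tie both libraries to an animal. Deviations of a mouse's libraries from their group means correlated at 0.115 to 0.322 over genes in oligodendrocytes, -0.0559 to 0.456 in neurons and 0.05 to 0.483 over all nuclei. In neurons mouse 4 gave -0.0246, against a median of 0.110 with other mice, and mouse 2 gave -0.0559 against -0.00752. Over all nuclei mouse 4 gave 0.0586 against 0.0833. In every other case the own pair exceeded that median. The script was tested on simulated data. Shares were compared by the exact sign-change test over mice. DESeq2 1.42.0, other scaling, no filter, no block, thinning, other limits and leaving out each mouse were tried as alternatives. Gene positions came from GENCODE M21. The groups, gene lists and rules were chosen with earlier results of these data known. Named genes were the 10 highest and 10 lowest log2 fold changes among called genes with at least 20 CPM in the higher region and the same direction in 6 of 6 mice, up to the 10 smallest adjusted p for the interaction, and members of the lists. Some listed genes are counted but not reported by name here.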

Additional observations from a re-analysis of the deposited data

Results flagged for a closer look

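Single libraries stood apart from the other 5 of their region for 11 quantities, where the gap to the nearest library made up most of the range. Chance alone sets about 1 in 20 groups apart, and the number of groups examined is not given here. The 11 are therefore not read as an excess. Mouse 3 had the highest deep brain values of Slc17a6 in neurons (212.5 CPM), of the share of oligodendrocytes (28.1%), and of Gabra6 (18.6), Cbln3 (7.68) and Fat2 (12.4 CPM over all kept nuclei), the last 3 being cerebellar genes. Its cortex was highest for Slc6a5, at 0.145 CPM, which is 3 UMIs. The cortex of mouse 5 stood apart in the percent of barcodes kept (86.0), in nuclei kept (9696), in the median UMIs of its oligodendrocytes (2440) and in Slc17a7 in neurons (295.8 CPM). The cortex of mouse 4 was highest for Mef2c in neurons (1057 CPM).

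The region difference differed between genotypes, by the interaction test of edgeR, for the 10 named genes in neurons and for both genes called in oligodendrocytes. The interaction, as the log2 difference of mutants minus controls, was -1.08 ± 0.13 for Satb1, -1.19 ± 0.15 for Gm13306, -0.54 ± 0.08 for Pgm2, -1.63 ± 0.23 for Gcnt4, 1.52 ± 0.22 for Gpr101 and -2.22 ± 0.33 for Cd34. For Sec1 it was -1.65 ± 0.25, for Peg10 1.37 ± 0.21, for Emx1 -2.27 ± 0.35 and for Gabre 2.12 ± 0.33. In oligodendrocytes it was -1.89 ± 0.28 for C4b. Avp had an adjusted p of 0.0296 in the edgeR interaction test and no fold is given, since all 6 cortical libraries of the mutants held 0 UMIs.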

How the results depend on the processing

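The direction turned for the neuronal share and for Drd2 in neurons. Without the minimum of 2000 UMIs the neuronal share was higher in deep brain by 4.66 points. Under that setting oligodendrocytes differed by 15.8 points, neurons with Slc17a7 by -17.2 and with Slc17a6 by 14.8, each in the same direction in 6 of 6 mice and at the same exact permutation p of 0.03125, the smallest possible. Their adjusted p over the 5 shares was 0.0521, since the neuronal share no longer passed. With 1 mouse left out the smallest exact p is 0.0625, and the differences ran from -21.6 to -19.2 points for neurons, 9.11 to 10.8 for oligodendrocytes, -19.5 to -17.3 for Slc17a7 and 13.8 to 16.9 for Slc17a6. Thinning to 2000 UMIs left 2673 genes higher over all nuclei, 1541 higher and 1596 lower in neurons and 153 higher in oligodendrocytes, on fewer UMIs. In oligodendrocytes 673 were higher with no filter, 158 without the replicate block, and 28 higher and 60 lower under the stricter class limits; leaving out a mouse gave 151 to 285 higher and 232 to 469 lower. The interaction in neurons gave 186 higher and 293 lower with DESeq2, 39 and 94 with no filter, 34 higher without the block, 9 higher after thinning, and 0 to 88 higher and 0 to 160 lower without 1 mouse number. In oligodendrocytes it gave 25 and 21 with no filter, 0 and 0 without the block, 4 and 4 under stricter limits, and 0 to 3 and 0 to 1 without 1 mouse number. Of 165 region differences of single genes examined, 126 kept their side of the threshold in every alternative, and 108 single values lost a call. The log2 fold change of Drd2, not called in any, was 0.11 and ran from -0.28 to 0.52 with 1 mouse left out, below 0 without mouse 4 or mouse 6. The cause of these changes was not tested.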
